A study of Mus musculus with 17 samples.

Results

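The 10 genes described here mark mural cells, the cells that wrap blood vessels. Pdgfrb, Rgs5, Vtn, Higd1b, and Abcc9 stand for pericytes, and Acta2, Tagln, Myh11, Cnn1, and Myl9 stand for vascular smooth muscle cells. They were located by gene symbol in a mouse cortex expression table, and all 10 were among its 55453 symbols. Levels are in TPM, the share of a transcript in a library scaled to 1000000, which allows for transcript length, so that genes can be compared with each other. A gene was tested if its mean over all mice was at least 1 TPM, which held for 16265 genes and for 9 of the 10 mural genes. Cnn1, with a mean of 0.612 TPM, was below this limit and is given by its values, outside the counts of tested genes.

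The mice were 17 C57BL/6J males from 3 lines. The KO line (hemizygous loss of Hnrnph2) and the R206W line (hemizygous for that substitution) were sampled at 8 weeks, with 3 mutants and 3 WT controls each. The P209L line, also hemizygous, was sampled at 3 weeks, with 3 mutants and 2 WT controls analyzed here. Hnrnph2 is an X-linked gene for the RNA-binding protein hnRNPH2, and by the study's account controls were littermates and its own KO line arose from a frameshifting indel. Every cell of a mutant male carries the allele. P209L mice differ from the other mutants in allele, line, and age at once, so these cannot be told apart.

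Pericytes sit on brain capillaries within the basement membrane they share with endothelial cells, and are recruited there by endothelial platelet-derived growth factor B acting on the receptor PDGFRβ. They help to maintain the blood-brain barrier and capillary tone. Arterial and arteriolar smooth muscle cells contract to set vessel diameter, using a cytoskeleton whose genes are switched on by serum response factor (SRF) with its cofactor myocardin.

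As a check of the labels, Hnrnph2 was at 21.29 to 24.39 TPM in KO mice and at 80.47 to 144.72 TPM in their controls. Neuronal and astrocyte genes were abundant in all 17 libraries, as cortex should show, with 8 such genes summing to between 2102 and 4404 TPM. Of the vessel genes, 13 endothelial genes summed to between 353.6 and 588.7 TPM, and none was at 0 in any mouse. A pair of libraries stood apart. KO control 1 had 20.1% of its TPM in mitochondrially encoded genes, against 10.7% to 15.4% in the others. P209L control 2 had 1780 TPM of choroid plexus genes, against at most 28.35 TPM elsewhere. In bulk tissue, fewer cells of a type and less RNA per cell cannot be told apart.

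The pericyte genes had a higher summed level than the smooth muscle genes, mostly through Rgs5 and Vtn. Higd1b, Pdgfrb, and Abcc9 each had a lower mean than Myl9 and Tagln. The 5 pericyte genes together made up 141.9 ± 17.2 TPM (SD, n = 12) in 8-week mice and 84.8 ± 14.1 TPM (SD, n = 5) in 3-week mice. The 5 smooth muscle genes made up 42.5 ± 16.5 TPM and 21.6 ± 4.9 TPM in the same mice. By mean over the 17 mice, the order ran from Rgs5 (65.8 TPM) through Vtn (43.7), Myl9 (20.1), Tagln (8.27), Higd1b (7.78), Pdgfrb (5.80), Acta2 (5.67), Abcc9 (2.12), and Myh11 (1.66) to Cnn1. Rgs5 was above 84.9% of all tested genes and Myh11 above 8.31%. In the 8-week mice, the means of Rgs5 (74.3 ± 8.18 TPM) and Vtn (50.7 ± 14.9 TPM) were apart by more than either SD. So were those of Vtn and Myl9 (22.9 ± 6.6 TPM). In KO mouse 3, however, Vtn (87.70 TPM) was above Rgs5 (73.33 TPM). The 8-week means of Tagln, Higd1b, and Pdgfrb (9.35, 7.85, and 6.54 TPM) lay within 1 SD of Acta2 (7.49 ± 5.56 TPM). Those of Abcc9 and Myh11 (2.57 ± 0.762 and 2.08 ± 1.45 TPM) were apart by less than either SD. These SDs are between mice, whereas all genes were measured in the same mice. Within mice, Tagln was above Pdgfrb in every mouse. Abcc9 was above Myh11 in all mice but KO mouse 3 and R206W mouse 3. Relative to their means, Rgs5 and Higd1b varied least among the 8-week mice, with coefficients of variation of 11.01% and 11.16%, and Acta2 varied most, at 74.3%.

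**Figure D1:**
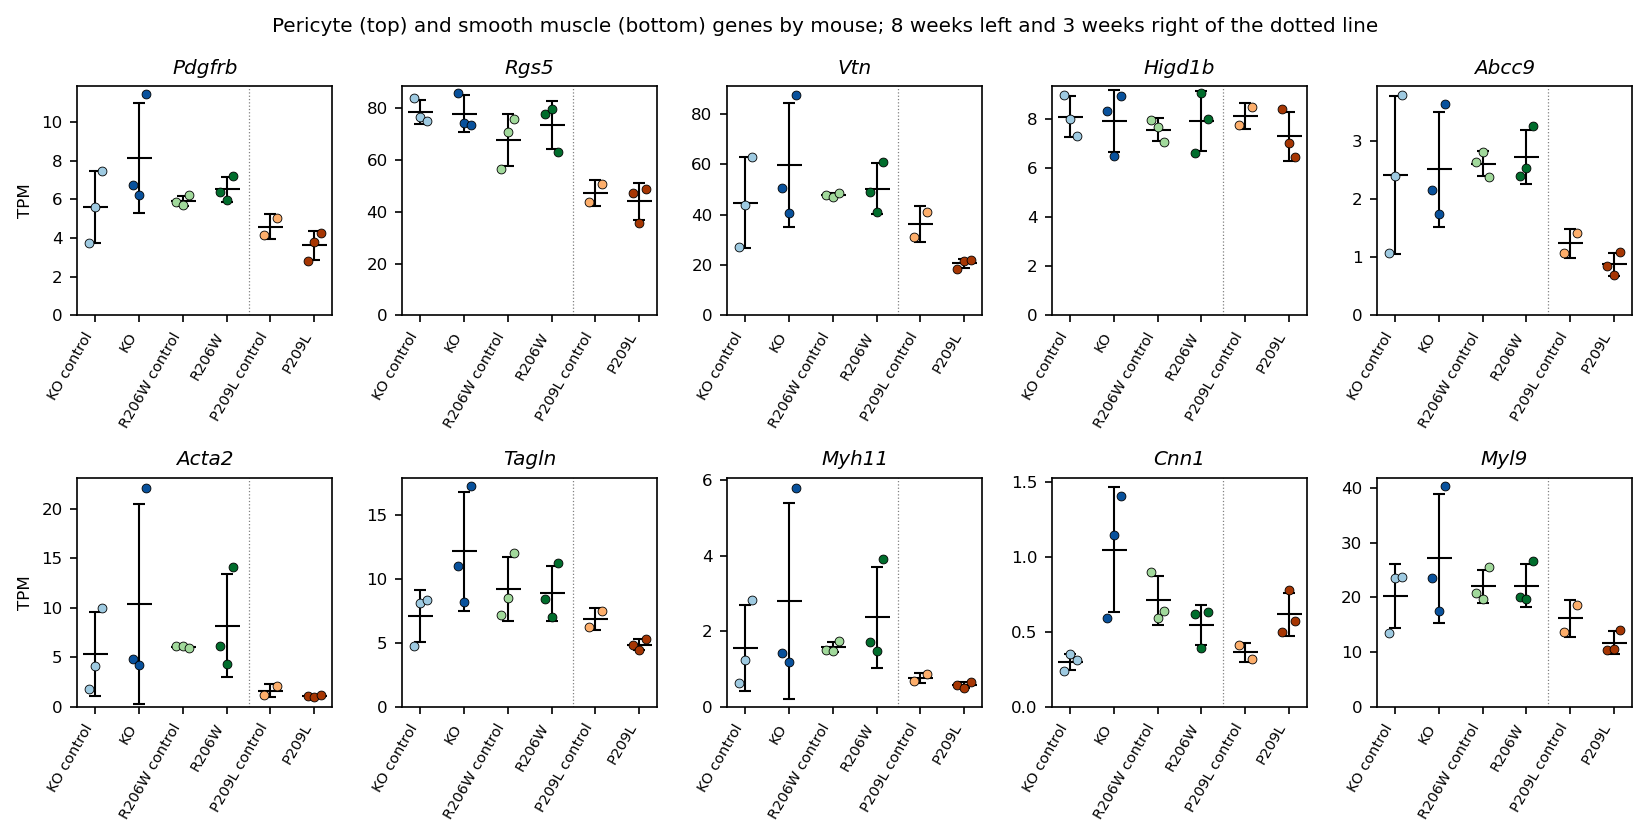
TPM of the 10 mural genes (vertical axes, each starting at 0) in the 6 groups. Points are mice and bars are the mean ± SD (n = 3, except n = 2 for P209L controls). Rgs5 was at most 50.63 TPM in the 5 mice right of the dotted line and at least 56.43 TPM in the 12 mice left of it, and KO mouse 3 had the highest value of Pdgfrb, Vtn, Acta2, Tagln, Myh11, Cnn1, and Myl9.

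Pdgfrb encodes the PDGF receptor β of pericytes and smooth muscle cells (chromosome 18, 61045150 to 61085061, plus strand, GRCm38). Pdgfrb was at 3.75, 5.58, and 7.47 TPM in KO controls and at 6.75, 6.24, and 11.42 TPM in KO mice. In the R206W line, Pdgfrb was at 5.86, 5.71, and 6.20 TPM in controls and at 6.37, 5.95, and 7.21 TPM in mutants. At 3 weeks, Pdgfrb was at 4.13 and 5.03 TPM in controls and at 2.81, 3.79, and 4.27 TPM in P209L mice. Mutants and controls overlapped in all 3 lines, and the P209L mice lay below every 8-week mutant.

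Rgs5, a regulator of G-protein signaling that is enriched in brain pericytes (chromosome 1, 169655501 to 169695813, plus strand), was the most abundant of the 10. Rgs5 was at 83.81, 76.32, and 74.99 TPM in KO controls and at 85.94, 74.07, and 73.33 TPM in KO mice. Values of Rgs5 in the R206W line were 56.43, 70.85, and 75.90 TPM in controls and 77.60, 79.64, and 62.83 TPM in mutants. At 3 weeks, Rgs5 was at 43.60 and 50.63 TPM in controls and at 47.27, 35.74, and 48.74 TPM in P209L mice. Genotypes overlapped within each line, whereas all 5 of the 3-week mice lay below all 12 of the 8-week mice, a separation that in this direction held for 10.2% of tested genes and for no other mural gene.

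Vtn encodes vitronectin, a matrix and plasma glycoprotein that pericytes secrete in the brain (chromosome 11, 78499091 to 78502324, plus strand). Vtn was at 27.00, 44.04, and 63.11 TPM in KO controls and at 50.78, 40.66, and 87.70 TPM in KO mice. R206W controls had 47.94, 47.13, and 48.51 TPM of Vtn, and R206W mice had 49.22, 41.07, and 60.91 TPM. At 3 weeks, Vtn was at 31.24 and 41.23 TPM in controls and at 18.59, 21.66, and 21.89 TPM in P209L mice. All 3 P209L mice thus lay below both of their controls, a separation found in 10.7% of tested genes. They also lay below every 8-week mutant, a separation found in 28.6%.

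Higd1b, a hypoxia-inducible domain family member found in pericytes (chromosome 11, 102835849 to 102838040, plus strand), was nearly level across the cohort. Higd1b was at 8.94, 7.97, and 7.30 TPM in KO controls and at 8.30, 6.48, and 8.93 TPM in KO mice. R206W controls had 7.94, 7.65, and 7.03 TPM of Higd1b, and R206W mice had 6.61, 9.04, and 8.00 TPM. At 3 weeks, Higd1b was at 7.74 and 8.48 TPM in controls and at 8.39, 7, and 6.43 TPM in P209L mice. All 6 groups overlapped.

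Abcc9 encodes SUR2, the sulfonylurea receptor subunit of the vascular ATP-sensitive potassium channel (chromosome 6, 142587862 to 142702315, minus strand). Abcc9 was at 1.07, 2.40, and 3.80 TPM in KO controls and at 2.17, 1.74, and 3.64 TPM in KO mice. R206W controls had 2.64, 2.82, and 2.39 TPM of Abcc9, and R206W mice had 2.40, 2.54, and 3.26 TPM. At 3 weeks, Abcc9 was at 1.07 and 1.42 TPM in controls and at 0.86, 0.69, and 1.09 TPM in P209L mice. Genotypes overlapped in each line. The 3-week values were below all 8-week values except that of KO control 1, which equaled P209L control 1.

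The smooth muscle genes are classical SRF targets, so their promoters were searched for the SRF-binding CArG box. The search used the 250 bases before to 50 bases after each RefSeq start (GRCm38.p6), which were given for 6 of the 10 genes: Rgs5, Vtn, Abcc9, Acta2, Cnn1, and Myl9. The box is 10 bases long and its reverse complement is again a CArG box, so that 1 search covers both strands. Exact boxes were found in 1.63% of 32851 promoter windows, and boxes that were exact or had 1 of the inner bases altered in 9.98%. Of the 6 mural promoters, those of Myl9 and Acta2 held boxes, and the windows of Rgs5, Vtn, Abcc9, and Cnn1 had no match. The matching stretches are shown 5′ to 3′ on the strand of the gene, with boxes in capitals. The Myl9 stretch (chr2:156775278-156775399, plus strand) has an exact box 161 to 152 bases before the start and a box with 1 altered base 99 to 90 bases before it. Acta2 (minus strand) has boxes with 1 altered base 84 to 75 bases (chr19:34255438-34255467) and 34 to 25 bases (chr19:34255388-34255417) before the RefSeq start, in sequence that GENCODE M21 places within the first exon. A match of letters is not evidence of binding.
Myl9 promoter: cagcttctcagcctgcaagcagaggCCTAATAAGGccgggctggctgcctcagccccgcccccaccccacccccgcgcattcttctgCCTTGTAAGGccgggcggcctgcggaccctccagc
Acta2 promoter, far box: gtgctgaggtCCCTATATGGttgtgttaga
Acta2 promoter, near box: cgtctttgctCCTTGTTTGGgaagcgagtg

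Acta2 encodes smooth muscle α-actin, the thin-filament actin of contractile smooth muscle (chromosome 19, 34241090 to 34255590, minus strand), and had the widest spread of the 10 relative to its mean. Acta2 was at 1.78, 4.14, and 10.01 TPM in KO controls and at 4.84, 4.26, and 22.04 TPM in KO mice. R206W controls had 6.15, 6.11, and 5.92 TPM of Acta2, and R206W mice had 6.13, 4.37, and 14.07 TPM. At 3 weeks, Acta2 was at 1.2 and 2.08 TPM in controls and at 1.08, 1.03, and 1.23 TPM in P209L mice. Genotypes overlapped in every line. Of the 5 mice at 3 weeks, 4 lay below every 8-week mouse, and P209L control 2 lay above KO control 1.

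Tagln encodes SM22 (transgelin), an actin-binding protein of smooth muscle (chromosome 9, 45929619 to 45936058, minus strand). Tagln was at 4.74, 8.16, and 8.37 TPM in KO controls and at 11.03, 8.19, and 17.31 TPM in KO mice. R206W controls had 7.16, 8.54, and 12.04 TPM of Tagln, and R206W mice had 8.44, 7, and 11.25 TPM. At 3 weeks, Tagln was at 6.24 and 7.47 TPM in controls and at 4.86, 4.43, and 5.29 TPM in P209L mice. A pair of KO mice exceeded all their controls, and all 3 P209L mice lay below both of theirs. Tagln overlaps genes on the opposite strand, Pcsk7 at its 3′ end (mean 18.01 TPM) and Gm48529 within it (1.30 TPM), and whether strand was used in quantification is not stated, so its level is less certain.

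Myh11 encodes the smooth muscle myosin heavy chain, the most specific marker of contractile smooth muscle (chromosome 16, 14194535 to 14291372, minus strand). Myh11 was at 0.62, 1.25, and 2.83 TPM in KO controls and at 1.43, 1.18, and 5.79 TPM in KO mice. R206W controls had 1.51, 1.49, and 1.74 TPM of Myh11, and R206W mice had 1.72, 1.49, and 3.90 TPM. At 3 weeks, Myh11 was at 0.68 and 0.86 TPM in controls and at 0.59, 0.51, and 0.67 TPM in P209L mice. KO mouse 3 and R206W mouse 3 had the highest values at 8 weeks, as for Acta2. The P209L mice lay below both of their controls, the nearest values being 0.67 and 0.68 TPM.

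Myl9 encodes the regulatory light chain of smooth muscle myosin, whose phosphorylation triggers contraction (chromosome 2, 156775420 to 156781658, plus strand), and was the most abundant smooth muscle gene. Myl9 was at 13.47, 23.54, and 23.80 TPM in KO controls and at 23.48, 17.61, and 40.38 TPM in KO mice. R206W controls had 20.73, 19.77, and 25.52 TPM of Myl9, and R206W mice had 20.02, 19.64, and 26.65 TPM. At 3 weeks, Myl9 was at 13.74 and 18.60 TPM in controls and at 10.35, 10.61, and 14.12 TPM in P209L mice. Genotypes overlapped in all 3 lines.

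Cnn1 encodes calponin 1, an actin-binding inhibitor of myosin ATPase that marks differentiated smooth muscle (chromosome 9, 22099216 to 22109630, plus strand), and was the least abundant. Cnn1 was at 0.24, 0.35, and 0.31 TPM in KO controls and at 0.59, 1.15, and 1.41 TPM in KO mice. R206W controls had 0.90, 0.59, and 0.64 TPM of Cnn1, and R206W mice had 0.62, 0.39, and 0.63 TPM. At 3 weeks, Cnn1 was at 0.41 and 0.32 TPM in controls and at 0.50, 0.78, and 0.57 TPM in P209L mice. Mutants lay above controls without overlap in the KO and P209L lines. The KO controls were also below every R206W control. Most tested genes leaned that way, since 15.82% had a lower mean in R206W controls than in KO controls. The share of genes that separate these control groups was not counted. At such levels a value may rest on few reads, and depth is not known from TPM.

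Loss of Hnrnph2 left no mural gene past the threshold. Differences are in log2(TPM + 1), a scale that understates changes of low genes, and were tested with limma and adjusted over all 16265 tested genes with a threshold of 0.05. In KO mice against KO controls, 0 of 9 tested mural genes passed, against 0.00615% of all tested genes. At an unadjusted p under 0.05, 2 of 9 were higher, against 4.08% of tested genes in either direction. These were Tagln, higher by 0.68 ± 0.25 (SE, adjusted p = 0.999), and Pdgfrb, higher by 0.47 ± 0.21 (SE, adjusted p = 0.999). Without KO control 1, the library rich in mitochondrial transcripts, 0 of 9 were past an unadjusted p of 0.05, as without KO mouse 3. There were 4 of 9 without KO control 3 or KO mouse 2, and 1 or 2 of 9 without any other mouse. The share of all tested genes in each of these fits is not given here. The counts show only how much the result depends on single mice. Acta2 had the largest difference, 0.72, with a 95% interval from -0.38 to 1.83. Rgs5 and Higd1b were at -0.01 and -0.03, with intervals of -0.32 to 0.29 and -0.32 to 0.26. The remaining 4 genes were between 0.08 (Abcc9) and 0.46 (Myh11). Across the 9 genes the median was 0.41, against 0.06 over all tested genes. KO mouse 3 and KO controls 1 and 3 decided this value, since it was 0.04 without KO mouse 3, 0.11 without KO control 1, and 0.67 without KO control 3. Cnn1, in a fit without the limit on low values, was higher by 0.64 (SE 0.13, adjusted p = 0.514). Cnn1 was thus the 1 mural gene whose KO mice lay above all controls, a separation found in 5.43% of tested genes.

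No mural gene passed in the R206W line either. R206W mice were compared with R206W controls at the same age, and 0 of 9 genes passed, against 0.0369% of tested genes, with 0 of 9 at an unadjusted p under 0.05 (2.19% of tested genes). Differences ran from -0.04 (Tagln) to 0.32 (Myh11), with a median of 0.06 against 0.01 over all genes. This median was -0.06 without R206W mouse 3 and 0.14 without R206W control 3. Rgs5 differed by 0.12, with a 95% interval from -0.19 to 0.42, and Pdgfrb by 0.11, from -0.34 to 0.56. The intervals were wider for Acta2 (-0.87 to 1.34) and Myh11 (-0.48 to 1.11). R206W mouse 3 was the highest of its line for Vtn, Pdgfrb, Abcc9, Acta2, Myh11, and Myl9. In none of the 10 genes did the groups separate, against 16.2% of tested genes in either direction.

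P209L mice had lower means than their controls for all 9 tested mural genes, and 0 of 9 passed the threshold, against 0.0984% of tested genes. Vtn was the exception at an unadjusted p under 0.05, 1 of 9 against 7.46% of tested genes. Its mean of 20.7 TPM in P209L mice was 57.2% of the 36.2 TPM in controls, a difference of -0.77 ± 0.31 (SE, adjusted p = 0.563). Myl9 was at -0.43 (95% interval -1.05 to 0.19) and Tagln at -0.42 (-1.01 to 0.17). Pdgfrb, Acta2, and Abcc9 were at -0.28, -0.30, and -0.26, and Myh11, Higd1b, and Rgs5 between -0.15 and -0.11. The median of the 9 was -0.28, against 0.02 over all tested genes. It was -0.40 without P209L control 1 and -0.14 without P209L control 2, the library with choroid plexus genes, and Vtn was not past an unadjusted p of 0.05 without that library or without P209L mouse 1. Vtn, Tagln, and Myh11 lay below both controls in every P209L mouse, a separation found in 10.7% of tested genes, and Cnn1 lay above them, as did 14.2%.

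Markers of neighboring cells were read in the P209L line as well. The 14 leptomeningeal fibroblast genes summed to 57.3 to 83.8 TPM in P209L mice and 100.3 to 115.2 TPM in controls, with 0 of 14 past the threshold. All 14 were below zero, and 5 were past an unadjusted p of 0.05, against 7.46% of tested genes. The 13 endothelial genes summed to 353.6 to 389.2 TPM in P209L mice and 389.3 to 443 TPM in controls. Of these, 0 of 13 were past the threshold and 0 of 13 past an unadjusted p of 0.05. No gene of these lists was at 0 in any mouse. The 10 skeletal muscle genes summed to 46.8 to 61.6 TPM in P209L mice and 110.3 to 115.6 TPM in controls, led by Myh7 (-1.43, adjusted p = 0.0188) and Tnnc1 (-1.23, adjusted p = 0.0288), both of which also serve slow and cardiac muscle, while Ckm was at most 0.14 TPM in any mouse. The part of these cell types in the mural values was not tested.

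The effects of the alleles were then set against each other. For the KO effect minus the R206W effect, 0 of 9 mural genes passed, against 0.0307% of tested genes, and their median of 0.35 was 0.01 without KO control 1 and -0.09 without KO mouse 3. For the P209L effect minus the R206W effect, 0 of 9 passed against 0% of tested genes, and the largest value was that of Vtn, -0.82 (95% interval -1.70 to 0.05). For the KO effect minus the P209L effect, which was added after the values were seen, 0 of 9 passed against 0.0492%, and 3 were past an unadjusted p of 0.05, as were 7.98% of tested genes. Those 3 were Vtn (1.18, adjusted p = 0.48), Tagln (1.10, adjusted p = 0.462), and Pdgfrb (0.75, adjusted p = 0.585). Without P209L control 2, the choroid plexus library, 1 of 9 was past it, and 2 of 9 without KO control 1, KO mouse 3, or P209L mouse 1. Rgs5 and Higd1b had the smallest values there, 0.10 and 0.11. Between the 8-week control groups, R206W controls against KO controls, 0 of 9 mural genes and 0% of tested genes passed, with 0 of 9 at an unadjusted p under 0.05 (3.12% of tested genes).

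**Figure D2:**
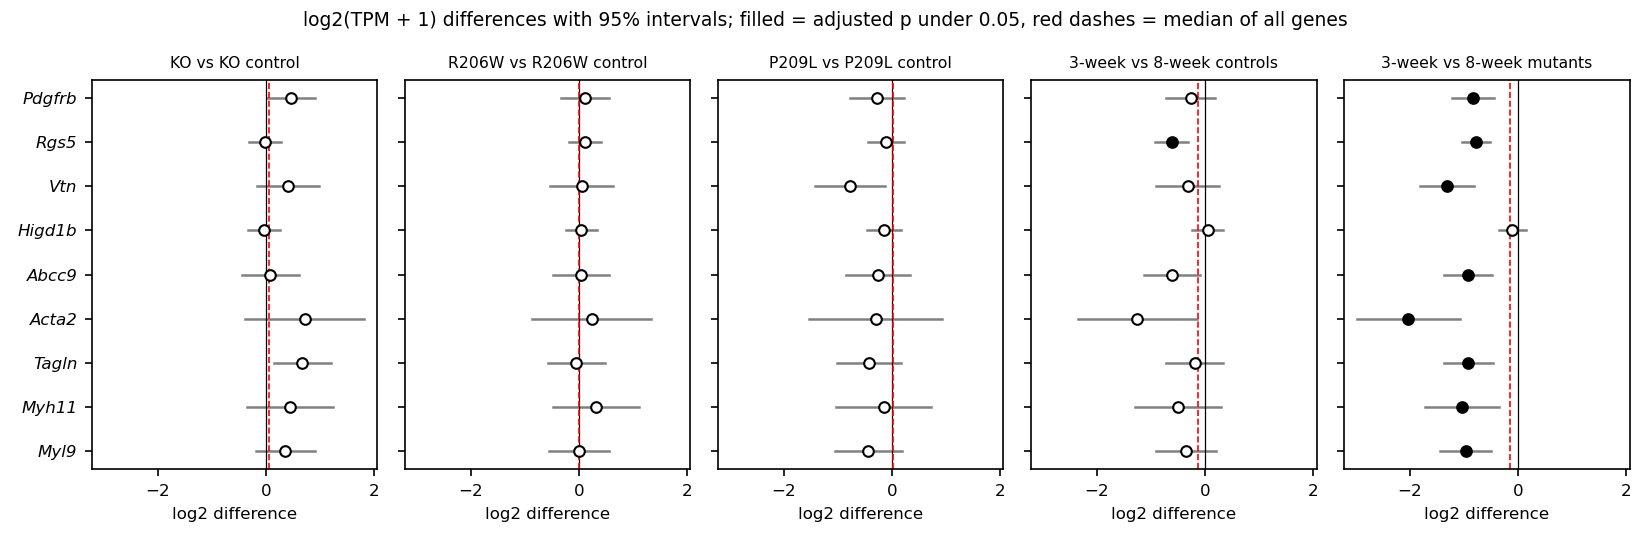
Differences in log2(TPM + 1) of the 9 tested mural genes (points) with 95% intervals (bars) in 5 comparisons. Filled points had an adjusted p under 0.05 and red dashes mark the median of all tested genes. Filled points are Rgs5 in the comparison of controls by age and all genes but Higd1b in the comparison of mutants by age.

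Comparisons between ages are also comparisons between lines. In the 2 controls at 3 weeks against the 6 controls at 8 weeks, 1 of 9 mural genes passed and was lower, against 36.1% of tested genes in either direction and 24.8% lower. This was Rgs5, whose mean of 47.1 TPM at 3 weeks was 64.5% of the 73.1 TPM at 8 weeks (-0.62 ± 0.14 SE, adjusted p = 0.00413). Abcc9 (-0.61, adjusted p = 0.0644) and Acta2 (-1.25, adjusted p = 0.0725) did not pass. Higd1b was at 0.05 and the others between -0.49 (Myh11) and -0.19 (Tagln). The median of the 9 was -0.35, against -0.12 over all tested genes, and was -0.15 without P209L control 1 and -0.56 without P209L control 2. Rgs5 was the 1 gene of the 10 without overlap, against 21.5% of tested genes. Over all tested genes, 4039 were lower and 1837 higher, a split that became 3879 and 3239 with median-of-ratios scaling, under which the median of all genes was -0.02 and Rgs5 still passed. Without P209L control 1, 0 of 9 passed. Without KO control 1, 3 of 9 passed, and also 3 of 9 without KO mouse 3, which enters only the estimate of spread. After removal of each library's trend with GC content and transcript length, Rgs5 was at -0.28 (adjusted p = 0.169) and 0 of 9 passed.

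Among mutants, the 3 P209L mice at 3 weeks were compared with the 6 KO and R206W mice at 8 weeks. Of 9 mural genes, 8 passed and were lower, against 45.9% of tested genes in either direction and 32.1% lower. Myh11, counted among them, reached the limit of 1 TPM through the 8-week mice (mean 2.08 TPM, against 0.662 TPM at 3 weeks). A lower 3-week value of Myh11 is therefore partly built in by that limit. The largest difference was that of Acta2 (-2.03 ± 0.45 SE, adjusted p = 0.00213). Its mean of 1.11 TPM at 3 weeks was 11.99% of the 9.29 TPM at 8 weeks. KO mouse 3 (22.04 TPM) and R206W mouse 3 (14.07 TPM) raised that 8-week mean, and the 8-week median was 5.485 TPM. Vtn was at 37.6% of its 8-week mean (-1.32, adjusted p = 0.000494), Abcc9 at 33.5% (-0.93, adjusted p = 0.00264), and Pdgfrb at 49.5% (-0.83, adjusted p = 0.00207). Rgs5 was at 58.1% (-0.78, adjusted p = 0.000211). Of the other smooth muscle genes, Myh11 was at 22.8% (-1.04, adjusted p = 0.0166), Tagln at 46.1% (-0.92, adjusted p = 0.00294), and Myl9 at 47.5% (-0.97, adjusted p = 0.00288). Higd1b did not pass, at 92.2% (-0.10, 95% interval -0.35 to 0.15, adjusted p = 0.501), and was above zero at 0.04 with median-of-ratios scaling and 0.11 with quantile normalization. The median of the 9 was -0.93, against -0.16 over all tested genes. The split over all genes was 5213 lower and 2257 higher, or 4325 and 3967 with median-of-ratios scaling, under which the same 8 mural genes passed. These 8 genes were without overlap between the groups, against 28.6% of tested genes, while Higd1b and Cnn1 overlapped. With the trend in GC content and length removed, the median was -0.57 and 7 of 9 passed, all but Higd1b and Myh11 (adjusted p = 0.11). Leaving out P209L mouse 2 also left 7 of 9.

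The age difference of the mutants includes the alleles of 3 lines, and it was not shown to differ from that of the controls. For the difference between them, added after the values were seen, 0 of 9 mural genes passed, against 0.0184% of tested genes, with 2 of 9 at an unadjusted p under 0.05 (7.40% of tested genes). Those were Vtn (-1.0, adjusted p = 0.574) and Tagln (-0.74, adjusted p = 0.653). Without P209L control 2, 0 of 9 were past an unadjusted p of 0.05, and 1 of 9 without KO control 1, with a range of 0 to 4 of 9 over the 17 mice left out in turn. All 9 values were below zero and their median was -0.57, against -0.02 over all tested genes.

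Other genes of the same cells and their neighbors were read in the same comparisons of age. Their counts stand against all tested genes, of which 32.1% were lower and 13.9% higher in the 3-week mutants, and 24.8% lower and 11.3% higher in the 3-week controls. Of 15 other pericyte genes, 12 were lower and 0 higher in the 3-week mutants, with a median of -0.63. Among them were Cd248, the surface protein endosialin (-1.01, adjusted p = 0.000494), Slc6a20a, an imino acid transporter (-0.97, adjusted p = 0.00115), and Foxf2, a transcription factor of brain pericytes (-0.87, adjusted p = 0.00196). Cd248 reached the limit of 1 TPM through the 8-week mice (mean 1.80 TPM, against 0.676 TPM at 3 weeks), so its lower value is partly built in. The same holds for Tbx18, also among the 15 (1.225 TPM, against 0.86 TPM at 3 weeks). In the 3-week controls, 1 of the 15 was higher and 0 lower. That gene was Cspg4 (0.51, adjusted p = 0.0285), which encodes NG2 and is also made by oligodendrocyte precursors. Of 15 tested smooth muscle genes beyond the 5, 10 were lower and 1 higher in the mutants, and 4 were lower in the controls, near the share of all genes. Of these 15, Pln (1.609 TPM at 8 weeks, 0.786 TPM at 3 weeks) and Mrvi1 (1.51 and 0.65 TPM) reached the limit through the 8-week mice. Mylk, the kinase that phosphorylates the Myl9 product, was lower in both (-0.85, adjusted p = 6.65e-05 in mutants and -0.53, adjusted p = 0.00674 in controls), as was Cald1, caldesmon (-0.95, adjusted p = 0.000106 and -0.52, adjusted p = 0.0192).

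Of 24 genes for signals that recruit mural cells, 15 were lower and 1 higher in the 3-week mutants. In the controls 6 were lower and 1 higher, which is at the 24.8% of all tested genes that were lower. S1pr1, a sphingosine-1-phosphate receptor, was lower in both (-1.13, adjusted p = 1.17e-05 in mutants and -0.75, adjusted p = 0.000948 in controls). So were the TGF-β receptors Tgfbr1 (-0.69, adjusted p = 7.49e-05 and -0.79, adjusted p = 0.000131) and Tgfbr2 (-1.11, adjusted p = 0.00038 and -0.83, adjusted p = 0.00915). Tek, the endothelial angiopoietin receptor, was lower in the mutants (-1.13, adjusted p = 0.000648). Edn1, the vasoconstrictor endothelin 1, was higher in the controls (0.50, adjusted p = 0.0215). Of 10 tested genes of the SRF pathway, 6 were lower and 1 higher in the mutants, and 3 lower and 1 higher in the controls. Flna, filamin A, was the higher one in both (0.91, adjusted p = 0.000747 and 0.85, adjusted p = 0.00429), while the SRF cofactor Mrtfb was lower in both (-0.87, adjusted p = 0.00178 and -0.82, adjusted p = 0.00861). In the KO, R206W, and P209L comparisons with their controls, 0 genes of these 4 lists passed, against 0.00615%, 0.0369%, and 0.0984% of tested genes. In P209L mice, 14 of the 15 other pericyte genes were below zero (median -0.377), and 4 were past an unadjusted p of 0.05. Of the other lists, 1 of 15 smooth muscle genes, 0 of 24 signals, and 0 of 10 SRF pathway genes were past it, against 7.46% of tested genes.

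Vessel and meningeal markers were read in the same way. Of 13 endothelial genes, 8 were lower in the 3-week mutants (median -0.66), among them Flt1 (-1.57, adjusted p = 0.000466) and Cdh5 (-1.50, adjusted p = 0.000358). In the controls, 2 were lower and 1 higher, a smaller share than that of all genes. Their sum was 353.6 to 443 TPM in all 3-week mice and 379 to 588.7 TPM in all 8-week mice. Of 14 leptomeningeal fibroblast genes, 10 were lower in the mutants (median -0.78) and 2 in the controls, again a smaller share than that of all genes. Their sum was 57.3 to 115.2 TPM at 3 weeks and 73.7 to 155.5 TPM at 8 weeks. Foxc1 (1.243 TPM at 8 weeks, 0.768 TPM at 3 weeks) and Slc22a6 (2.788 and 0.956 TPM) reached the limit of 1 TPM through the 8-week mice. Lower 3-week values of these genes are therefore partly built in. The 5 blood genes went the other way, with 5 higher in the controls and 2 in the mutants, and their sum was 1905 to 4884 TPM at 3 weeks against 560.1 to 1323 TPM at 8 weeks. Neurons and astrocytes were not exempt, as 5 of 8 of their genes were lower in the 3-week mutants and 4 of 8 in the controls. The part of these cells in the mural values was not tested.

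Most of the mural genes varied together from mouse to mouse. Each value was taken as its deviation from the mean of its group, over 17 mice, and the correlations are descriptions of libraries that share their preparation and composition. Pdgfrb, Vtn, Abcc9, Acta2, Tagln, Myh11, and Myl9, a set of 7 chosen after these values were seen, had Pearson's r of 0.759 to 0.987 over their 21 pairs (median 0.889). The closest pair was Acta2 and Myh11. Rgs5 and Higd1b were apart from the 7, with r of -0.351 to 0.126 (median -0.04), and with each other at r = 0.08. Cnn1 was between, with r of 0.221 to 0.497 with the 7 and -0.73 with Rgs5. The division therefore did not follow the labels pericyte and smooth muscle. Pairs of pericyte genes had a median r near 0, and pairs of smooth muscle genes one of 0.835.

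**Figure D3:**
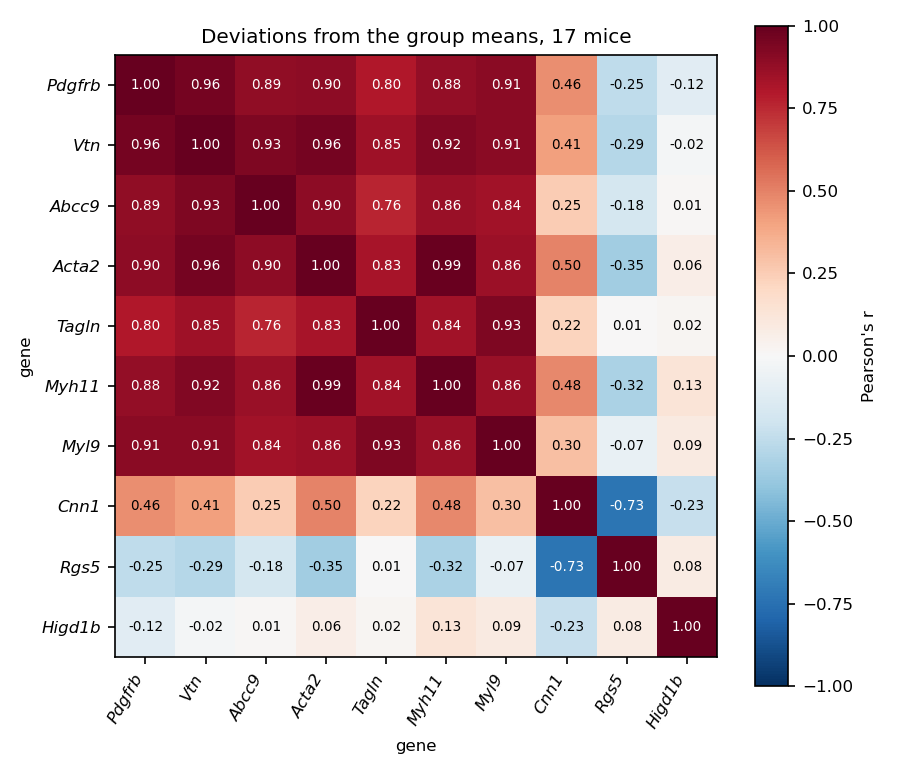
Pearson's r between mural genes (both axes) of deviations from group means in log2(TPM + 1), over 17 mice. The 7 genes at the upper left have pairwise r of 0.759 to 0.987, whereas Rgs5 and Higd1b at the lower right have r of -0.351 to 0.126 with them.

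The mean deviation of the 7 genes was lowest in KO control 1 (-0.60) and KO mouse 2 (-0.49), and highest in KO mouse 3 (0.73), KO control 3 (0.54), and R206W mouse 3 (0.38). In the R206W controls and the 3-week mice it stayed between -0.15 and 0.15. Over the 17 mice it had r = -0.819 with the deviation in the mitochondrially encoded share of TPM, and -0.826 without KO control 1. Both quantities are shares of the same total. Without KO control 1 the 21 pairs had r of 0.668 to 0.988, and without KO mouse 3 of 0.670 to 0.981. The pattern was not particular to mural genes, since 46.5% of the other tested genes had r above 0.5 with the mean of the 7, and 4.59% reached the lowest r that a gene of the 7 had (0.896, Tagln). This mean had an absolute r of 0.898 with the first principal component of all tested genes, which held 31.0% of the variance within groups. Transcripts of the genes that reached 0.896 had a median GC content of 56.9%, against 50.5% over all tested genes. The 7 genes had GC contents of 46.3% to 56.6%, Higd1b 52.6%, and Rgs5 43.2%. The part of RNA quality, GC content, or dissection in this pattern was not tested.

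**Figure D4:**
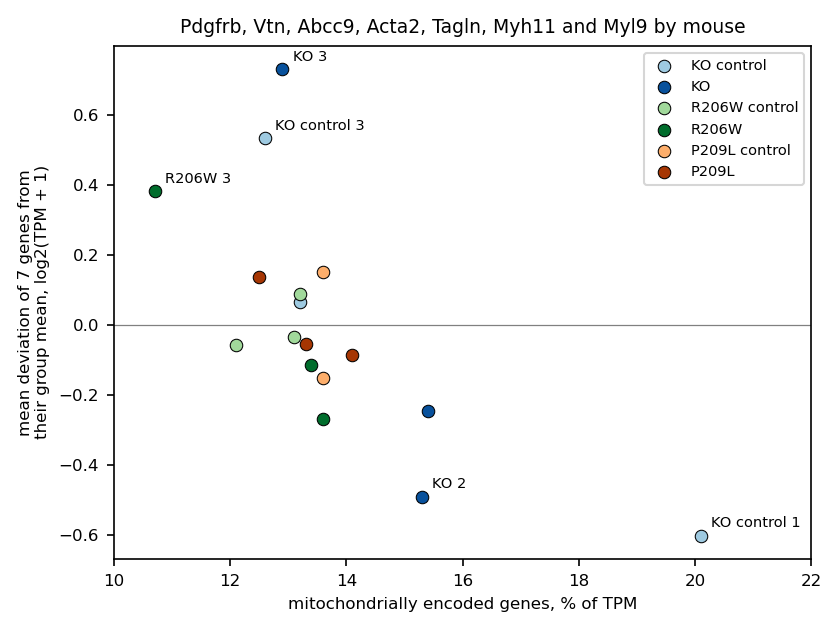
Mean deviation of Pdgfrb, Vtn, Abcc9, Acta2, Tagln, Myh11, and Myl9 from their group means (vertical axis, log2(TPM + 1)) against the mitochondrially encoded share of TPM (horizontal axis, %), 1 point per mouse. KO control 1 lies at 20.1% and -0.60, and KO mouse 3 is highest at 0.73.

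Genes outside the 10 that most resembled them were ranked by r of the same deviations. The mean of the 5 pericyte genes was closest to Esam (r = 0.982), an endothelial adhesion molecule, Zfp653 (0.977), Eng (0.973), a TGF-β coreceptor of endothelium, Plod1 (0.970), a collagen lysyl hydroxylase, and Acvrl1 (0.969), a BMP receptor of endothelium. The mean of the 5 smooth muscle genes was closest to Prkch (0.975), Ehd2 (0.971), Pias4 (0.964), Tns1 (0.963), and Nid1 (0.960), a basement membrane protein. The pericyte mean had r = 0.962 with the endothelial mean and the smooth muscle mean r = 0.880. With the leptomeningeal mean these were 0.406 and 0.673, and without KO mouse 3 they were 0.0462 and 0.437. Of the 15 other pericyte genes, 11 had r above 0.5 with the mean of the 7, from Art3 (0.130), an ADP-ribosyltransferase family gene, to Foxf2 (0.934). Of the 15 other smooth muscle genes, 9 did, from Nexn (-0.07) to Tagln2 (0.902). All 10 SRF pathway genes did, the lowest being Klf4 (0.702). These counts stand against 46.5% of the other tested genes and were not particular to mural genes. Of 13 endothelial genes 9 did, of 14 leptomeningeal genes 10, and of 8 neuronal and astrocyte genes 5, up to Gad1 (0.914). Blood (2 of 5), skeletal muscle (1 of 4), and choroid plexus genes (0 of 3) did so less often.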

How the data were processed

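The authors deposited TPM values per gene symbol for 17 mouse cortices (total RNA, stranded libraries). The submitters' processing notes name Trim Galore, STAR 2.7.1a, GATK 4.0.4.0, RSEM, and mm10, without roles. TPM holds no read depth, so depth per sample is unknown and no counting error is given. Of 55573 entries, 120 repeated symbols were summed, leaving 55453. Genes with a mean of at least 1 TPM were fitted with limma 3.58.1 (R 4.3.3) on log2(TPM + 1), 1 mean per group over all 6 groups, with a mean-variance trend, two-sided tests, and Benjamini-Hochberg adjustment over the 16265 genes. All 10 mural genes were named. From other lists, at most 4 genes past the threshold with the smallest p, or otherwise at most 2, could be named, and for likeness the 5 highest r. The mural genes and lists were chosen with earlier results of these data known. Nothing states which litters mice came from. The p-values set differences of group means against the spread between mice within groups, pooled over all 6 groups. Positions and GC content follow GENCODE M21 (GRCm38), which held 98.3% of symbols, and promoters RefSeq. Scripts were tested on simulated data. Alternatives were other pseudocounts, limits, scalings, sample weights, a replicate block, removal of the GC and length trend, and leaving out each mouse. Counts of mural genes with a mouse left out are given without the share of all tested genes. They show only how a count depends on single mice.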

Additional observations from a re-analysis of the deposited data

How the results depend on the processing

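Across the alternatives, the count of mural genes past the threshold stayed at 0 in the KO, R206W, and P209L comparisons and in the 3 contrasts between their effects, and at 7 or 8 of 9 in the 3-week against 8-week mutants, or 6 of the 7 genes left by a limit of 5 TPM. Among controls by age, where 1 passed, the count was 2 with a pseudocount of 0.1, 2 with mitochondrial genes removed, and 4 with sample weights. It was 0 with the GC and length trend removed, and up to 3 when an 8-week mouse was left out. Over all 16265 tested genes, 5876 passed without these changes, 5894 with that pseudocount, and 9470 with sample weights. With mitochondrial genes removed, 6618 of 16634 passed. The sample weights (estimated gene by gene, a method chosen after the default did not converge on these data, and lowest for KO control 1, 0.0819) gave the most calls over all genes in the KO line, 2138 against 1, and there turned Rgs5 to 0.11, Higd1b to 0.00261, Abcc9 to -0.183, and Myl9 to -0.0369. In the R206W line, weights turned Vtn to -0.0237, Abcc9 to -0.0494, Acta2 to -0.0302, and Myl9 to -0.045, and Myl9 was also below zero with size factors (-0.00519), quantile normalization (-0.0102), mitochondrial genes removed (-0.0032), and the GC trend removed (-0.0371). Removal of that trend turned Rgs5 in KO mice to 0.000255 and Pdgfrb in the controls by age to 0.0974. In the mutants by age, Higd1b turned to 0.0444 with size factors and 0.11 with quantile normalization. None of these values was past the threshold.

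Leaving out a mouse changed the sign of small differences. In the KO line, Rgs5 ran from -0.0859 to 0.0357, Higd1b from -0.117 to 0.0874, Abcc9 from -0.237 to 0.37, and Myh11 from -0.0651 to 0.79. In the R206W line, Rgs5 ran from -0.00723 to 0.223, Vtn from -0.088 to 0.191, Higd1b from -0.0439 to 0.156, Abcc9 from -0.0583 to 0.104, Acta2 from -0.19 to 0.554, Tagln from -0.21 to 0.143, and Myl9 from -0.135 to 0.108. In the P209L line, Rgs5 ran from -0.214 to 0.0301, and among controls by age Higd1b ran from -0.00734 to 0.11. Where this leaves 1 P209L control, it is assumed to vary like the other groups. Over all genes, 16 passed in the P209L line (13 higher, 3 lower), 59 with size factors (36 and 23), 78 with the GC trend removed, and 68 without KO control 1. The causes of these changes were not tested.

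Whether same-numbered mice were paired cannot be decided with so few mice per group. The r of their deviations was 0.117, -0.0581, and 0.331 in the KO line, and -0.0283, -0.0297, and -0.113 in the R206W line. In the P209L line it was 0.0814 and 0.00276. Of the 6 mice of the KO line 3 correlated best with their own number, and of the 6 of the R206W line 0. With the replicate block, 0, 0, and 0 mural genes passed in the 3 lines and 1 and 8 in the comparisons by age. The P209L median was then -0.407. At an unadjusted p under 0.05 there were 4 mural genes in the P209L line, beside 1883 of 16265 tested genes. There were 6 in the KO effect minus the P209L effect, beside 2106 tested genes. In the age difference of mutants minus that of controls there were 6, beside 2113 tested genes. Without the block, the numbers over all tested genes were lower, at 1213, 1298, and 1203. Depth is unknown, which limits Cnn1 and Myh11 most.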
